A study of Mus musculus with 6 samples.

Results

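The genes described here are 43 that build and fuel the contractile machinery of skeletal muscle, read in whole mammary glands of mice with altered Brca1 and of their controls. They were chosen by name, as components of the thick and thin filaments, the Z disc and its scaffold, the calcium system and the energy supply of the muscle fibre. Earlier results of these data were known when they were chosen. A gene was represented by the probe set annotated to it alone that had the highest mean signal, and 42 of the 43 had one (Xirp2 did not), out of 18193 genes measured. Of these 42, 38 lay above the limit for testing, a mean log2 signal over the 6 arrays of at least 7.72, the median of that mean over all probe sets. The 4 left untested (Myh7, Myl2, Tnni1 and Tnnt1) are all forms typical of slow fibres.

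Each of the 6 arrays held labelled total RNA from the mammary glands of 1 female mouse on a mixed background of 129/FVB/Black Swiss. The virgin pair was a Brca1 D11/D11;p53+/- mutant and a Brca1 D+/+;p53+/- control, both aged 6 months. The pregnant pair, at day 16.5 and aged 5 months, was a Brca1 co/co/MMTV-Cre mutant and a Brca1 +/co/MMTV-Cre control, in which Cre is driven by the MMTV promoter. The lactating pair, at day 1 and aged 2 months, was again a Brca1 D11/D11;p53+/- mutant and a Brca1 D+/+;p53+/- control. Both virgin and both lactating mice therefore carried a p53+/- genotype, and both pregnant mice carried MMTV-Cre. The series text gives 1 genotype, D11/D11;p53+/-, for all 3 mutants, and the sample labels were followed here. Stage cannot be told apart from age, from the way Brca1 was altered or, for the lactating arrays, from the date in the array name. No label says how a gland was dissected, and p-values measure the spread between single mice of unlike genotype.

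Skeletal muscle fibres contract when myosin heads of the thick filament pull on actin of the thin filament, within a repeating unit called the sarcomere that is bounded by Z discs. Nerve impulses open the ryanodine receptor, and the calcium set free lifts the block that troponin and tropomyosin place on actin. Fast and slow fibres use different genes for the same part: Myh1, Myh2 and Myh4 encode fast myosin heavy chains and Myh7 the slow one. The mammary gland itself is built of luminal cells that make milk, myoepithelial cells that contract with smooth muscle proteins, and fat.

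Promoter windows from RefSeq (build GRCm38.p6) are given for the 3 fast myosin heavy chains and for Acta1, the skeletal muscle actin. Each had more signal in pregnant than in virgin glands, as described below. The ratios of Myh4 (2.19) and Acta1 (2.14) were under the median of the measured genes, 2.56. Myh2, Myh1 and Myh4 lie next to each other in that order on chromosome 11. Each window is 300 bases long, read 5′ to 3′ on the strand of its gene, and capitals mark matches to the binding site of MEF2, to the CArG box and to TATAAA.
Myh2, chr11:67170777-67171076, plus strand: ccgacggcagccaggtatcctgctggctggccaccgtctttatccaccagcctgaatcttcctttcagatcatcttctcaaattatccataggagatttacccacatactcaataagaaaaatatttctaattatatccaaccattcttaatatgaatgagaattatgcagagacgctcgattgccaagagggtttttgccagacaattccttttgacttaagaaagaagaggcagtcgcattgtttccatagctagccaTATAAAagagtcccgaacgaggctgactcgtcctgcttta
Myh1, chr11:67199852-67200151, plus strand: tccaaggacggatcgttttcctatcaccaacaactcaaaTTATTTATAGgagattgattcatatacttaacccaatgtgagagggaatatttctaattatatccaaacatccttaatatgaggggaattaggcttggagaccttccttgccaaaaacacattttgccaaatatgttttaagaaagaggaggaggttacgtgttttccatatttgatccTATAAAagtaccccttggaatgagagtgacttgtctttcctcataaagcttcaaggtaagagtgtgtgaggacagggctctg
Myh4, chr11:67237562-67237861, plus strand: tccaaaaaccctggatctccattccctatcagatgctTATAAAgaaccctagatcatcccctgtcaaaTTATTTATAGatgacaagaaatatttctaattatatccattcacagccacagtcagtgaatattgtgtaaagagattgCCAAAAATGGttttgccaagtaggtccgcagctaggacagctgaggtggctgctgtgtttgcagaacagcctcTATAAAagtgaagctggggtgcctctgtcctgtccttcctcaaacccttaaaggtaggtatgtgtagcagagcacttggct
Acta1, chr8:123894726-123895025, minus strand: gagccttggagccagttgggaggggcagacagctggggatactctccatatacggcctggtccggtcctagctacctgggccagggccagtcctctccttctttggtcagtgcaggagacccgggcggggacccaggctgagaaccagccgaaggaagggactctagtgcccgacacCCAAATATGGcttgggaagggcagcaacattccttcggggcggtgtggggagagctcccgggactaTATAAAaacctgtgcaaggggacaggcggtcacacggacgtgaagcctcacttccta
Myh1 and Myh4 each had 1 MEF2 match, Myh4 and Acta1 each had 1 CArG box, and Myh2 had only a TATAAA match among these 3 motifs. The table held windows for 33 of the 43 genes, 40 windows in all. On either strand, a MEF2 site occurred in 17.5% of these 40 windows, against 3.19% of all 32851 windows. A CArG box occurred in 10% of them and in 1.63% of all windows, and TATAAA in 20% and in 13.6%. CATTCC was found in 30% of them and in 14.7% of all windows, and the short E box CANNTG in 82.5% and in 72.3%. The reverse complement of TATAAA lies within some MEF2 matches, so these motifs overlap. A match describes letters only.

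Pregnant glands had far more signal from these genes than virgin glands. Signal is the MAS5 intensity of a probe set, with the same trimmed mean in every array, and ratios are on log2(signal + 52.1). All 42 measured genes had a higher mean in pregnant than in virgin glands, with a median log2 ratio of 2.56 and a range of 0.12 (Myh7) to 6.33 (Myh1), against a median of -0.06 over all 11562 genes tested. The median was 1.94 without the virgin mutant and 3.19 without the virgin control. For 18 of the 42, both virgin signals were at or under 484, the highest value of any probe set for Y-linked genes, which these female mice lack, and the fitted size of their ratios depends on the pseudocount. In limma's test with Benjamini-Hochberg adjustment over all genes, 35 of the 38 tested rose and none fell, while 6.56% of all genes tested rose and 8.03% fell. For 38 of the 42, both pregnant arrays lay above both virgin arrays, and the share of all genes that did so was not computed. In whole glands, more muscle cells and more RNA per muscle cell cannot be told apart.

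**Figure D1:**
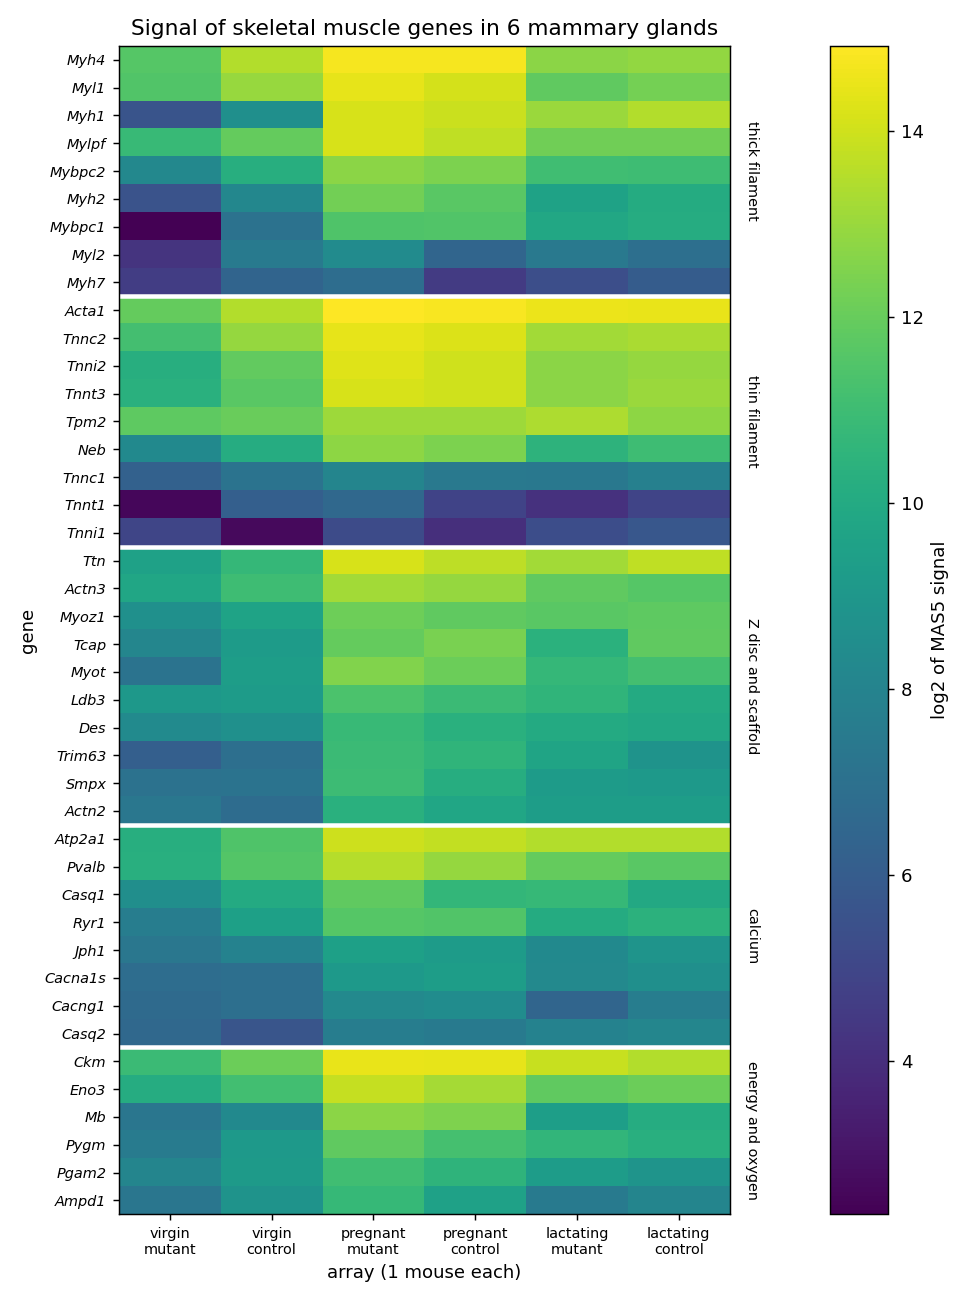
Signal of 42 skeletal muscle genes in 6 mammary glands, as log2 of the MAS5 signal (colour), with genes in rows grouped by role and arrays in columns (1 mouse each). Colours are to be read along a row, since probe sets differ in brightness; most rows are brightest in both pregnant columns and darkest in the virgin mutant.

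Summed over the 42 probe sets, the signal was 31935 in the virgin mutant and 81687 in the virgin control. It was 348948 in the pregnant mutant and 292300 in the pregnant control, and 151001 in the lactating mutant and 158872 in the lactating control. These sums made up 0.0894% and 0.231% of all signal on the virgin mutant and control arrays, 0.994% and 0.808% on the pregnant ones, and 0.421% and 0.454% on the lactating ones. The pregnant mutant had 10.9 times the sum of the virgin mutant, and the pregnant control 3.58 times that of the virgin control. The virgin mutant thus had the lowest sum and the pregnant mutant the highest. The difference between these fold values was not tested, with 1 mouse behind each sum.

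Among the thick filament genes, all 7 tested rose in pregnant glands, and the median log2 ratio of the 9 measured was 2.54. Myh1, the heavy chain of type IIX fibres, had the largest fitted ratio of the 42 genes. Its signal was 48.4 in the virgin mutant and 392 in the virgin control, 18311 in the pregnant mutant and 15552 in the pregnant control, and 8241 in the lactating mutant and 11409 in the lactating control. Pregnant glands exceeded virgin glands by 6.33 ± 0.48 on the log2 scale (SE, 2 arrays a stage, limma adjusted p = 0.000996), and lactating glands by 5.53 ± 0.48 (adjusted p = 0.000213). Both virgin signals lie under 484, so the size of this ratio depends on the pseudocount: it was 6.82 and 5.61 with a lower and a higher one. With the virgin signals set to 484, pregnant glands were at least 34.9-fold higher. Averaged over all its probe sets, the ratio of Myh1 was 4.37, against 4.45 for Myh2. That average takes in a Myh1 probe set with at most 46.2 in any array (ratio 0.26) and a bright one with a ratio of 6.52. The 3 stages did not overlap, although lactating and pregnant glands did not differ by the test (-0.80 ± 0.48, adjusted p = 0.235). Myh2, the heavy chain of type IIA fibres, had signals of 47.7 in the virgin mutant and 292 in the virgin control, 4859 in the pregnant mutant and 3304 in the pregnant control, and 760 in the lactating mutant and 1065 in the lactating control. It rose by 4.45 ± 0.47 in pregnant against virgin glands (limma adjusted p = 0.00285), and the log2 ratio of lactating to pregnant glands was -2.09 ± 0.47 (adjusted p = 0.0154). Myh4, the heavy chain of type IIB fibres, had signals of 3114 in the virgin mutant and 11467 in the virgin control on the probe set used. They were 27678 in the pregnant mutant and 27309 in the pregnant control, and 6736 in the lactating mutant and 7437 in the lactating control. Its ratio of pregnant to virgin glands was 2.19 ± 0.42 (limma adjusted p = 0.0168), and the lactating arrays lay between those of the virgin pair, with no call (0.24 ± 0.42, adjusted p = 0.653). A second probe set of Myh4 had only 116 in the virgin mutant and 58 in the virgin control. It had 1920 and 2114 in the pregnant mutant and control, a ratio of 3.93 to virgin glands. Its lactating mutant and control, at 633 and 1239, lay above both virgin arrays.

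Mybpc1, a myosin binding protein that braces the thick filament, had signals of 5.1 in the virgin mutant and 135 in the virgin control, 2810 in the pregnant mutant and 2898 in the pregnant control, and 951 in the lactating mutant and 1115 in the lactating control. The ratio of pregnant to virgin glands was 4.81 ± 0.39 on the log2 scale (limma adjusted p = 0.00123). Mybpc2, its fast fibre relative, had signals of 296 in the virgin mutant and 1206 in the virgin control, 6708 in the pregnant mutant and 5474 in the pregnant control, and 2167 in the lactating mutant and 2099 in the lactating control, a ratio of 3.21 ± 0.47 for pregnant against virgin glands (limma adjusted p = 0.00667). For both proteins all pregnant arrays were highest and all virgin arrays lowest. The fast light chains Mylpf and Myl1 rose by 2.54 ± 0.34 and 2.02 ± 0.38 (limma adjusted p = 0.00538 and 0.0157).

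Among the thin filament genes 6 of the 7 tested rose in pregnant glands, and the median log2 ratio of the 9 measured was 2.14. Neb, which encodes nebulin, a giant protein that runs along the thin filament, had signals of 321 in the virgin mutant and 1112 in the virgin control, 7111 in the pregnant mutant and 5464 in the pregnant control, and 1399 in the lactating mutant and 2037 in the lactating control. Its ratio of pregnant to virgin glands was 3.25 ± 0.41 (limma adjusted p = 0.00445). Tnnt3, the fast form of the troponin subunit that binds tropomyosin, had signals of 1264 in the virgin mutant and 3356 in the virgin control, 18522 in the pregnant mutant and 16365 in the pregnant control, and 6773 in the lactating mutant and 8477 in the lactating control. It rose by 3.04 ± 0.34 in pregnant against virgin glands (limma adjusted p = 0.00335). Tnni2, the fast inhibitory subunit of troponin, which lies near Tnnt3 on chromosome 7, had signals of 1210 in the virgin mutant and 3867 in the virgin control, 20094 in the pregnant mutant and 16610 in the pregnant control, and 6921 in the lactating mutant and 7740 in the lactating control, a rise of 3.04 ± 0.41 in pregnant against virgin glands (adjusted p = 0.00532). The 3 genes ordered the stages alike, with the pregnant arrays highest, the lactating ones next and the virgin ones lowest. Acta1 rose by 2.14 ± 0.38 and the fast calcium-binding troponin Tnnc2 by 2.29 ± 0.42 (limma adjusted p = 0.0135 and 0.0148). Tpm2, a tropomyosin that smooth muscle also uses, had the smallest called rise of the group on the probe set used, 1.16 ± 0.24 (adjusted p = 0.0215). Its further probe sets had larger ratios of 1.8, 2.03 and 2.75, so this rank depends on the probe set.

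All 10 measured genes of the Z disc and scaffold were tested and rose in pregnant glands, with a median log2 ratio of 2.88. Myot, whose product myotilin crosslinks actin at the Z disc, had signals of 140 in the virgin mutant and 644 in the virgin control, 5932 in the pregnant mutant and 4406 in the pregnant control, and 1682 in the lactating mutant and 2304 in the lactating control. The ratio of pregnant to virgin glands was 3.82 ± 0.46 (limma adjusted p = 0.00396). Ttn, titin, the elastic protein that spans from Z disc to the middle of the sarcomere, had signals of 741 in the virgin mutant and 1701 in the virgin control, 18197 in the pregnant mutant and 13077 in the pregnant control, and 9340 in the lactating mutant and 13615 in the lactating control. It rose by 3.71 ± 0.35 (limma adjusted p = 0.00207), and its lactating control array lay above its pregnant control array. Further probe sets of Ttn divided on this order: the lactating and pregnant controls had 3888 and 7402 on 1 of them, and 2746 and 2121 on another. Trim63, a ubiquitin ligase of the sarcomere also called MuRF1, had signals of 71.8 in the virgin mutant and 123 in the virgin control, 1910 in the pregnant mutant and 1541 in the pregnant control, and 839 in the lactating mutant and 451 in the lactating control, a rise of 3.59 ± 0.32 in pregnant against virgin glands (limma adjusted p = 0.00171).

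Tcap, telethonin, which caps titin at the Z disc, had signals of 275 in the virgin mutant and 600 in the virgin control, 3919 in the pregnant mutant and 5380 in the pregnant control, and 1341 in the lactating mutant and 3663 in the lactating control. It rose by 3.33 ± 0.26 in pregnant against virgin glands (limma adjusted p = 0.001). Tcap was lower in the mutant than in the control at every stage, as were Mybpc1, Cacna1s and Cacng1. The other rises of this group ran from 1.90 ± 0.23 (Ldb3, a Z disc scaffold protein) to 3.03 ± 0.26 (Smpx, a small muscle protein), and included Des, the intermediate filament desmin that smooth muscle also holds, at 1.92 ± 0.23.

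In the calcium group 6 of 8 genes rose in pregnant glands, and the median log2 ratio was 1.88. Atp2a1, the pump that returns calcium to the store of fast fibres, rose by 2.96 ± 0.32, and Ryr1, the release channel, by 2.78 ± 0.37 (limma adjusted p = 0.00306 and 0.00522). Pvalb, the calcium buffer parvalbumin of fast fibres, rose by 2.27 ± 0.39 (adjusted p = 0.0111). The rises of Cacna1s and Cacng1, subunits of the voltage sensor, and of Jph1, which ties the store to the cell membrane, were 1.91 ± 0.25, 1.22 ± 0.33 and 1.51 ± 0.27. Both calsequestrins, which hold calcium in the store, missed the call: Casq1 at 1.85 ± 0.53 (adjusted p = 0.0567) and Casq2 at 0.99 ± 0.34 (adjusted p = 0.0913).

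All 6 genes of energy and oxygen supply rose in pregnant glands, with a median log2 ratio of 2.91. Mb, myoglobin, the oxygen store of oxidative fibres, had signals of 156 in the virgin mutant and 316 in the virgin control, 6703 in the pregnant mutant and 5790 in the pregnant control, and 664 in the lactating mutant and 1109 in the lactating control. It rose by 4.50 ± 0.28 in pregnant against virgin glands (limma adjusted p = 0.00054). The rise was 2.26 when averaged with a second Mb probe set, which read at most 67.2 in any array. Mb also had the lowest ratio of lactating to pregnant glands among the 42 genes, -2.79 ± 0.28 (adjusted p = 0.0016). The rises of Pygm (muscle glycogen phosphorylase), Ckm (muscle creatine kinase) and Eno3 (muscle enolase) were 2.99 ± 0.43, 2.95 ± 0.35 and 2.86 ± 0.34. Those of Pgam2 (phosphoglycerate mutase) and Ampd1 (AMP deaminase) were 2.00 ± 0.37 and 1.89 ± 0.51, the last with an adjusted p of 0.0467.

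**Figure D2:**
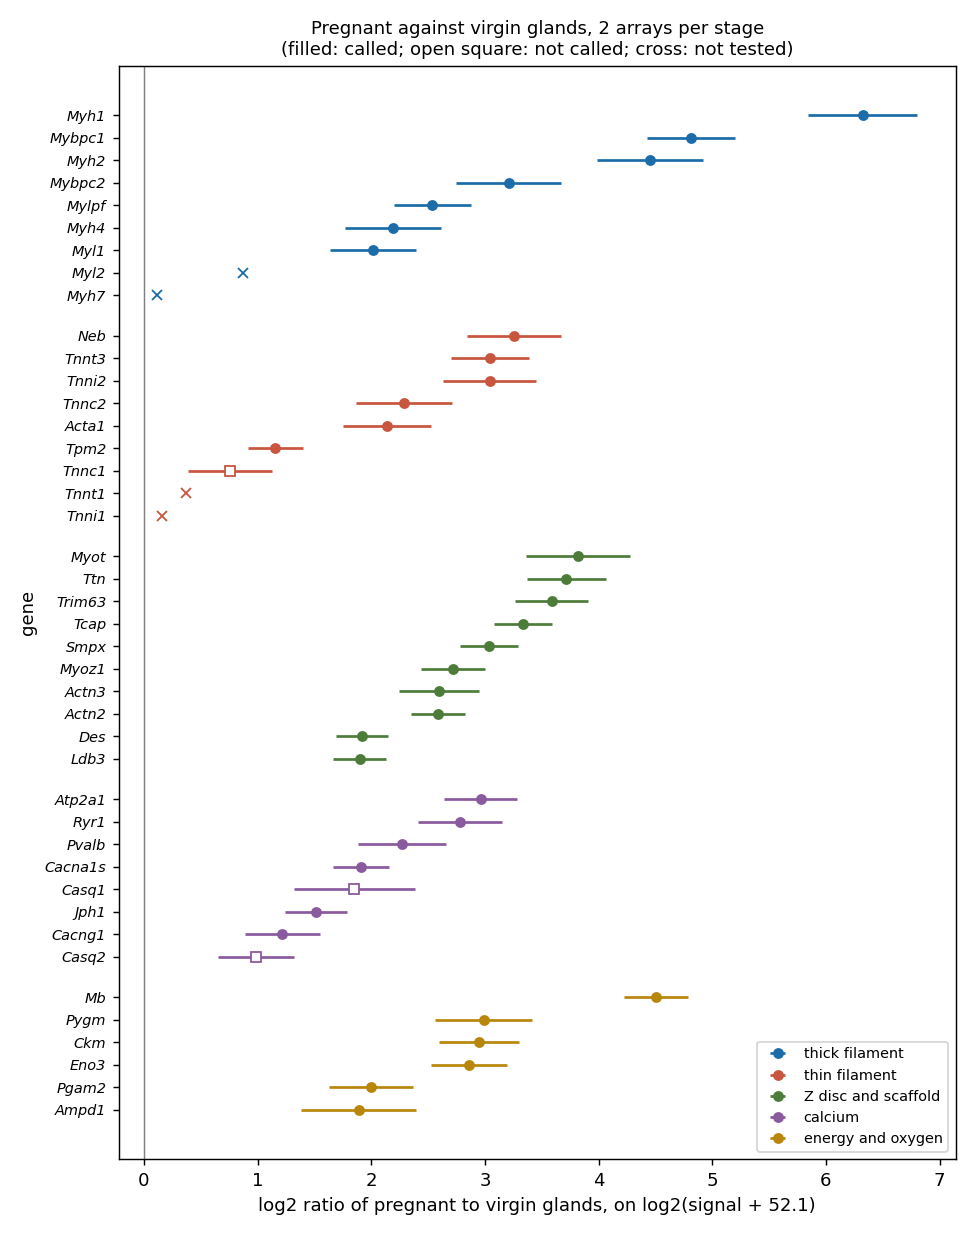
Log2 ratio of pregnant to virgin glands for 42 genes (points) with the SE from limma (bars), grouped by role; filled points were called, open squares were tested and not called, and crosses were not tested and carry no SE. All points lie above 0, from 0.12 for Myh7 to 6.33 for Myh1.

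The plot of ratios by role shows that each of the 5 groups holds genes of large and of smaller ratio. Of the 50 highest ratios of pregnant to virgin glands among all genes tested, 13 belonged to the muscle genes described here. None of the 50 lowest did. Where a gene had further probe sets of its own, all 23 of them, from 13 genes, had a higher mean in pregnant than in virgin glands. Some of these differences were small and at low signal, as for Mb (0.02) and Myh1 (0.26). The share over all probe sets was not computed.

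The 6 genes listed as slow fibre forms gave little signal in any array. They were Myh7, Myl2, Tnnt1, Tnni1, Tnnc1 and Casq2, and their highest value was 343 (Myl2, pregnant mutant). Mybpc1, whose relative Mybpc2 was listed as fast, was put in neither list. It had 2810 in the pregnant mutant and 2898 in the pregnant control. For comparison, 20 probe sets of Y-linked genes, which these female mice lack, had a median of 33.6 and a highest value of 484. None of the 6 listed slow genes exceeded 484 in any array. Of 14 fast fibre genes, 9 exceeded it in the virgin mutant and 12 in the virgin control, as did all 14 in every pregnant and lactating array. Probe sets differ in brightness, so this sets no level of one form against another.

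Myh7, the slow myosin heavy chain, had signals of 25 in the virgin mutant and 84.9 in the virgin control, 113 in the pregnant mutant and 22.8 in the pregnant control, and 41.2 in the lactating mutant and 63.3 in the lactating control. Myl2, the slow regulatory light chain, had 19.0 in the virgin mutant and 180 in the virgin control, 343 in the pregnant mutant and 87.4 in the pregnant control, and 175 in the lactating mutant and 125 in the lactating control. In both genes the pregnant mutant was the highest array, and the pregnant control lay below the virgin control. Tnnt1, the slow tropomyosin-binding troponin, had 5.9 in the virgin mutant and 72.3 in the virgin control, 95.9 in the pregnant mutant and 29.6 in the pregnant control, and 17.6 in the lactating mutant and 30.2 in the lactating control. Tnni1, the slow inhibitory troponin, had 32.0 in the virgin mutant and 6.4 in the virgin control, 37.2 in the pregnant mutant and 16.3 in the pregnant control, and 39.3 in the lactating mutant and 53.4 in the lactating control. The virgin and pregnant arrays of these 2 genes overlapped as well.

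Tnnc1, the troponin C of slow fibres and heart, had 77.5 in the virgin mutant and 139 in the virgin control, 265 in the pregnant mutant and 171 in the pregnant control, and 167 in the lactating mutant and 227 in the lactating control. Both pregnant arrays were above both virgin arrays, and the ratio of 0.76 ± 0.37 was not called (limma adjusted p = 0.205). Casq2, the calsequestrin of slow fibres and heart, had 95.8 in the virgin mutant and 50.3 in the virgin control, 202 in the pregnant mutant and 181 in the pregnant control, and 241 in the lactating mutant and 280 in the lactating control. Casq2 was the 1 listed slow gene called in lactating against virgin glands, at 1.34 ± 0.34 (limma adjusted p = 0.0121). All of its signals lay under 484, the highest value of the Y-linked probe sets. Over the 14 fast genes the median log2 ratio of pregnant to virgin glands was 2.66, with 13 called, and over the 6 slow genes it was 0.56, with 0 of the 2 tested called (1 at an unadjusted p under 0.05). The difference between these medians was not tested. Mybpc1, with a ratio of 4.81, counted in neither.

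**Figure D3:**
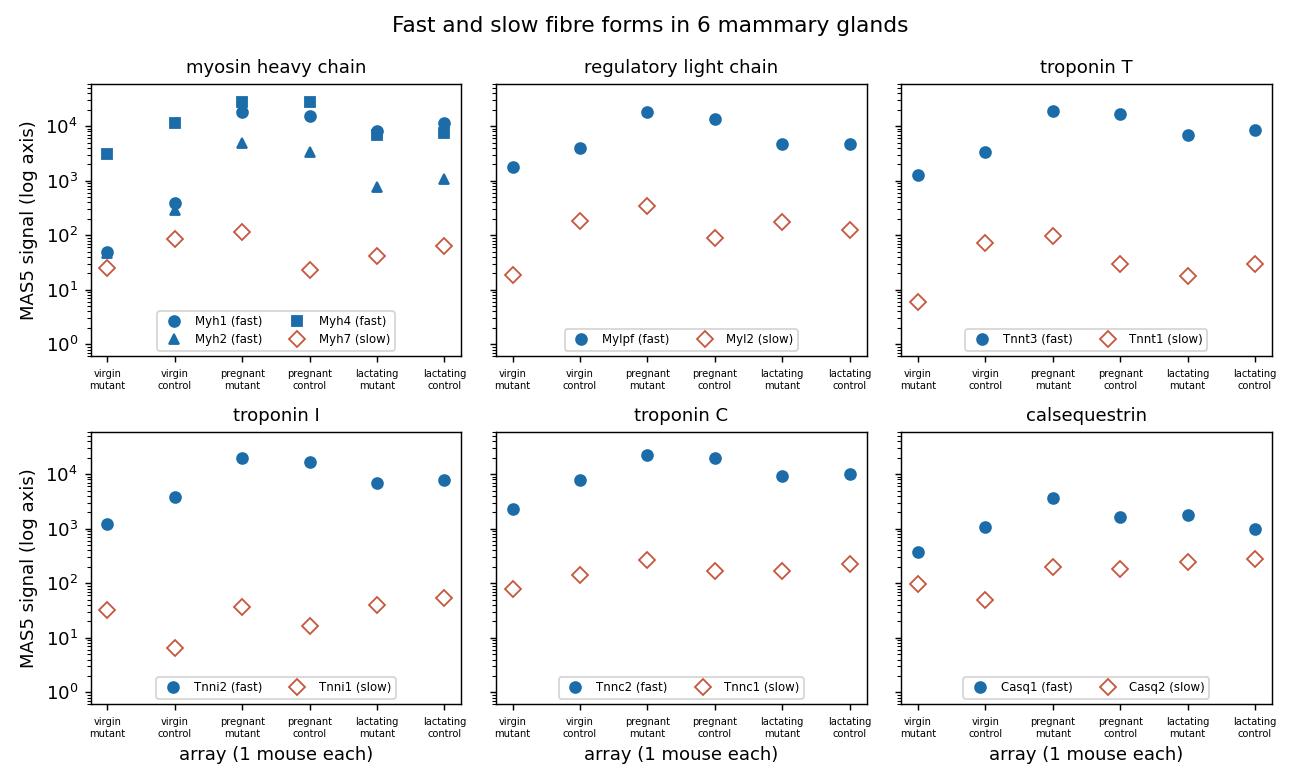
MAS5 signal (log axis) of fast forms (filled) and slow forms (open diamonds) of 6 muscle components in each of 6 arrays (1 mouse each). Fast forms change by stage, as with Myh1 at 48.4 in the virgin mutant and 18311 in the pregnant mutant. None of the slow forms shown exceeds 343, and heights of different genes are not comparable.

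Most of the genes had more signal in lactating than in virgin glands and less than in pregnant glands. Against virgin glands, 29 of the 38 tested rose in lactating glands and none fell, by limma's test with adjustment over all genes, while 24.2% of all genes tested rose and 28.5% fell. The median log2 ratio of lactating to virgin glands over the 42 was 1.34, from -0.23 (Ampd1) to 5.53 (Myh1), against -0.10 over all genes tested. All 10 measured Z disc and scaffold genes rose, against 4 of 7 tested thick filament genes, 6 of 7 thin filament genes, 5 of 8 calcium genes and 4 of 6 energy genes. Ttn rose by 3.27 ± 0.35 and Myoz1, a Z disc protein of fast fibres, by 2.49 ± 0.29 (limma adjusted p = 0.000426 and 0.000527). Myl1, at -0.17 ± 0.38, and Ampd1, at -0.23 ± 0.51, were the tested genes with a negative ratio, and neither was called. With quantile normalization Myl1 had a ratio of 0.06. For 33 of the 42, both lactating arrays lay above both virgin arrays, and the share of all genes that did so was not computed. With each array centred on its median, 18 of the 38 were called higher and the median ratio was 0.75. It was 0.82 without the virgin mutant and 1.97 without the virgin control.

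Against pregnant glands, 21 of the 38 fell in lactating glands and none rose, by the same limma test, while 17.2% of all genes tested fell and 15.5% rose. The median log2 ratio of lactating to pregnant glands was -1.05, from -2.79 (Mb) to 0.36 (Casq2), against -0.03 over all genes tested. Both lactating arrays lay below both pregnant arrays for 33 of the 42 and above them for 2. The shares of all genes that did so were not computed. Of the thick filament genes 6 of 7 fell, of the thin filament genes 3 of 7, of the Z disc and scaffold 5 of 10, of the calcium genes 3 of 8 and of the energy genes 4 of 6. Besides Mb and Myh2, the largest falls were those of Myl1 (-2.19 ± 0.38, limma adjusted p = 0.00699), Ampd1 (-2.12 ± 0.51, adjusted p = 0.0189) and Myh4 (-1.95 ± 0.42, adjusted p = 0.0138). Atp2a1 (-0.36 ± 0.32) and Acta1 (-0.34 ± 0.38) were not called. The count of falls depended on single mice: without the pregnant mutant it was 2 of 38, with a median of -0.67, and without the lactating control 11, with a median of -0.93.

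Between mutant and control over the 3 pairs, no muscle gene was called. Over all 11562 genes limma with Benjamini-Hochberg adjustment called 0 (0%), and at an unadjusted p under 0.05 it listed 215 as lower (1.86%) and 322 as higher (2.78%). At that unadjusted level 1 of the 38 muscle genes was lower and 0 higher. The 42 genes had a median mutant-to-control log2 ratio of -0.22, with 31 of them negative, against 0.03 over all genes tested. Without the virgin pair the median was 0.09. The lowest ratio was that of Tcap, -0.95 ± 0.21 (unadjusted p = 0.00209, limma adjusted p = 0.945). Tcap was lower in the mutant of all 3 pairs, as were Mybpc1, Cacna1s and Cacng1. The share of all genes that were so was not computed.

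Within single pairs the mutant and control differed in direction by stage, with 1 mouse per genotype and so without a test. In the virgin pair the mutant-to-control log2 ratio had a median of -1.14 over the 42, and 23 of the 38 tested genes were at least 2-fold lower in the mutant and none at least 2-fold higher. The same limits took in 1.25% (lower) and 1.44% (higher) of all genes tested. All 7 tested thick filament genes were at least 2-fold lower, and the median of the 9 measured was -1.71. Myh4 was at -1.86, and Myh1 at -2.14 from virgin signals that were both under 484. For the Z disc and scaffold 3 of 10 were at least 2-fold lower, with a median of -0.69. The mutant was higher for Casq2 (0.53), Tnni1 (0.52) and Actn2 (0.41), an actinin of the Z disc, and the pair was nearly level for Smpx (-0.03) and Cacna1s (-0.06). Of the further probe sets of the same genes, 11 of 23 were lower in the virgin mutant, as were 8 of the 15 that reached a signal of 500 in any array. Several of these 15 reached 500 only in pregnant or lactating arrays. The further probe sets with a virgin signal over 484 were all lower in the mutant: Tnni2 (-1.52), Ttn (-1.63) and Tpm2 (-0.35 and -1.06). Under 484, a second probe set of Myh4 had 116 in the virgin mutant and 58 in the virgin control, a log2 ratio of 0.61, and one of Ryr1 had 72.3 and 39, a ratio of 0.45. With all probe sets of a gene averaged, the median of the pair was -0.88.

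In the pregnant pair the median was 0.32, with 2 of the 38 at least 2-fold higher in the mutant (Ampd1 at 1.20 and Casq1 at 1.15) and none lower. The same limits took in 1.1% (higher) and 0.908% (lower) of all genes tested. The 5 genes with a negative ratio in this pair included Tcap (-0.45), Cacna1s (-0.22) and Cacng1 (-0.17). In the lactating pair the median was -0.17, with Tcap the 1 gene at least 2-fold lower in the mutant (-1.42) and none higher, while 2.72% of all genes tested were at least 2-fold lower and 3.64% higher. Trim63 had the highest ratio in this pair, 0.83.

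**Figure D4:**
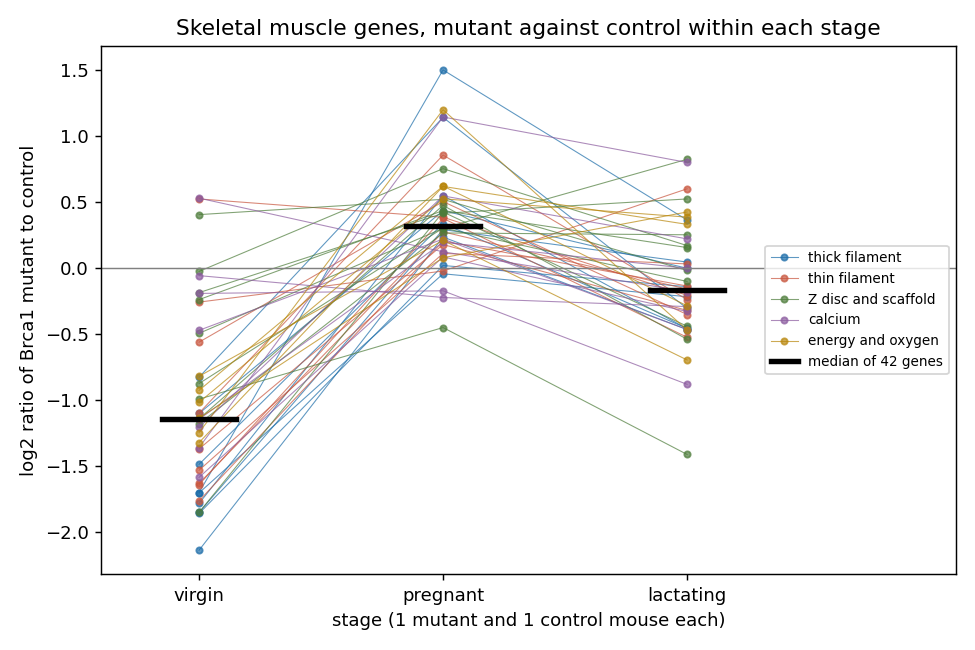
Log2 ratio of Brca1 mutant to control within each stage for 42 muscle genes (points, joined by gene and coloured by role), with the median over the genes as a bar; each ratio compares 1 mutant with 1 control mouse. The median was -1.14 for the virgin pair, 0.32 for the pregnant pair and -0.17 for the lactating pair.

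The plot of within-stage ratios shows 39 of 42 genes below 0 in the virgin pair, 37 above 0 in the pregnant pair and 28 below 0 in the lactating pair. The genes of a pair come from the same RNA samples and are not replicates of a genotype difference. The change from virgin to pregnant glands had a median of 3.29 on the log2 scale between the mutants and 1.91 between the controls. Both ran the same way for most genes: 40 of 42 were at least 2-fold higher in the pregnant than in the virgin mutant, and 35 of 42 in the pregnant than in the virgin control. The shares of all genes past these limits were not computed. Myh7, at -0.87, had the lowest value between the controls.

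RNA quality and array values moved with these groups. The 3′ to 5′ signal ratio of the actin control probe sets was 2.04 in the virgin mutant and 2.74 in the virgin control, 1.43 and 1.37 in the pregnant mutant and control, and 1.58 in the lactating mutant against 1.91 in its control. That of Gapdh was 1.52 in the virgin mutant and 3.5 in the virgin control, and between 0.73 and 1.20 on the other arrays. Both ratios were thus highest in the virgin control, whose muscle signal exceeded that of the virgin mutant. The median signal of an array was 139 and 120 in the virgin mutant and control, 158 and 148 in the pregnant ones, and 211 and 231 in the lactating ones, at an equal trimmed mean of 500. Their part in the results was not tested.

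Most other muscle genes, listed apart from the 43, moved in the same direction in pregnant glands. These lists too were drawn up with earlier results of these data known. Of 24 tested further sarcomere genes 16 rose and none fell, with a median log2 ratio of 1.73 over the 31 measured. They included Nrap, which links actin to the membrane (3.27 ± 0.23), Myom2 of the M band (4.61 ± 0.35), Cmya5 (3.02 ± 0.29) and the small heat shock protein Hspb7 (2.59 ± 0.29). Of 13 genes of excitation and calcium release 6 rose and 1 fell, with a median of 1.04 over the 16 measured, and Trdn, triadin, which joins calsequestrin to the ryanodine receptor, was at 3.72 ± 0.36. Of 18 energy genes 7 rose and none fell, with a median of 0.87 over the 19 measured, and the muscle forms Cox6a2 of cytochrome oxidase and Ckmt2 of mitochondrial creatine kinase were at 3.31 ± 0.28 and 3.55 ± 0.42. All of these calls are limma's with adjustment over all genes, where 6.56% of those tested rose and 8.03% fell.

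Genes of the muscle membrane, of its nerve contact and of its making gave calls in both directions in pregnant against virgin glands. Most of those of the nerve contact and of muscle making were below the limit for testing. Of all genes tested, 6.56% rose and 8.03% fell. Of 8 tested genes of the dystrophin complex 1 rose (Sgca, a sarcoglycan of striated muscle, 1.41 ± 0.36) and 1 fell (Sspn, -1.14 ± 0.22), with a median of 0 over the 10 measured. Of 10 genes of the neuromuscular junction 2 were tested and 1 rose, Dok7 at 1.13 ± 0.27. Of 9 measured myogenic regulators 3 were tested, and Mef2a fell by 0.79 ± 0.19 while Mef2c (0.14 ± 0.27) and Mef2d (0.01 ± 0.22) were not called. The median over the 9 was 0.405, with 8 of them positive. The 3 embryonic or neonatal myosin genes were all below the limit for testing, with a summed signal of 162 to 532 in an array. Of the 7 measured heart-restricted genes 2 were tested and none was called in pregnant against virgin glands (0 at an unadjusted p under 0.05), with a summed signal of 446 to 1359 in an array.

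Some markers of other gland cells also differed by stage. Of all genes tested, 6.56% rose and 8.03% fell in pregnant against virgin glands. In lactating against virgin glands 24.2% rose and 28.5% fell, and in lactating against pregnant glands 15.5% rose and 17.2% fell. Of 11 tested markers of smooth muscle and myoepithelium 5 rose in pregnant against virgin glands and none fell, led by Actg2 (1.95 ± 0.31) and Cnn1 (2.12 ± 0.34), and their sum was 41835 and 49049 in the pregnant mutant and control, against 28020 and 24366 in the virgin mutant and control. Of 10 luminal markers 4 rose and none fell, among them the milk genes Wap (5.87 ± 0.36) and Lalba (4.49 ± 0.32), with sums of 194548 and 265453 in the pregnant mutant and control against 142422 and 118329 in the virgin ones. Of 10 fat cell markers 3 fell and none rose, including Plin4 (-1.29 ± 0.18), and the sums were 148844 and 176569 in the pregnant mutant and control against 205981 and 205381 in the virgin ones. In lactating against pregnant glands 6 of the 10 fat cell markers fell and none rose, with a median of -1.04, close to the muscle median of -1.05, and against virgin glands 7 fell, with a median of -2.37. Of the luminal markers 1 rose in lactating against pregnant glands (median 0.25), as did 1 of smooth muscle and myoepithelium (median -0.06), and none fell. Of 6 tested brown fat markers Cidea alone rose in pregnant against virgin glands (2.04 ± 0.18), and of 3 tested skin keratinocyte markers none was called (0 at an unadjusted p under 0.05). No marker was listed at 0, and the part of these lists in the muscle result was not tested.

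In the virgin pair, where the muscle genes were lower in the mutant, the other lists stood closer to 0. Their median mutant-to-control log2 ratios were -0.43 for further sarcomere genes, -0.52 for further energy genes, 0.22 for smooth muscle and myoepithelium, -0.02 for fat cells, 0.21 for luminal cells and -0.08 for keratinocytes. The fat cell sums of that pair, given above, were nearly equal. In the pregnant pair, where the muscle median was 0.32, all 10 luminal markers were lower in the mutant (median -0.48), as were 9 of the 12 of smooth muscle and myoepithelium (-0.21) and 7 of the 10 of fat cells (-0.26).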

How the data were processed

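Total RNA of 6 mammary glands was hybridised singly to biotin-labelled 1-colour arrays of 45101 probe sets. The deposited values are probe set intensity signals on a linear scale, which the authors made with MAS5, per the submitters' processing notes (version not given in the sources used here). Every array had a mean of 500 after trimming 2% at each end. Probe sets with 1 symbol in the platform annotation (34945) gave 18193 genes, by the highest mean signal, and 11562 passed the limit on low values. Signals were tested as log2(signal + 52.1), the 25th percentile of all values, with limma 3.58.1 in R 4.3.3 (stage and genotype terms, variance trend, 2 residual degrees of freedom), Benjamini-Hochberg adjustment over all genes and a threshold of 0.05. The code was tested on simulated data. Deviations of the 2 arrays of a stage correlated at 0.859 (virgin), 0.587 (pregnant) and 0.827 (lactating) over genes, so stage was kept as the block. The number of arrays limits the precision. Values in every array are given for the 12 genes with the largest ratios of pregnant to virgin glands, all genes listed as slow and Myh4, which was added after its values were seen. At most 4 genes of each further list are named, by smallest p. The genes and lists were chosen with earlier results of these data known. Other scalings, pseudocounts, limits, probe set rules, fits and omitted arrays were tried.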

Additional observations from a re-analysis of the deposited data

Results flagged for a closer look

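The muscle genes differed between mutant and control in opposite directions in 2 of the pairs. The median log2 ratio over the 42 measured genes was -1.14 in the virgin pair, with 39 of 42 negative, and 0.32 in the pregnant pair, with 37 of 42 positive. Among 23 further probe sets of these genes, 11 were lower in the virgin mutant. Luminal markers were lower in the pregnant mutant for all 10 genes, and their part in the result was not tested. Each pair holds 1 mutant and 1 control mouse, and the pairs differ in genotype and stage, so the difference between them was not tested.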

How the results depend on the processing

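Under the alternatives run, 14 ratios of single genes changed sign, of which 0 were called, and so did 1 median, that of mutant against control. For pregnant against virgin glands, the count of muscle genes called higher (35 of 38) ranged from 27 (without the pregnant mutant) to 37 over omitted arrays, its median from 1.94 (without the virgin mutant) to 3.19 (without the virgin control), and the count was 33 of 42 with no limit on low values and 29 with a stricter one. For lactating against virgin glands, 29 called higher became 18 with arrays centred on their medians (median ratio 0.75) and 20 to 32 over omitted arrays, where the median ratio ranged from 0.82 (without the virgin mutant) to 1.97 (without the virgin control). For lactating against pregnant glands, 21 called lower became 2 (without the pregnant mutant) to 26, with 11 without the lactating control, and the median was -1.46 with centred arrays and -1.58 (without the pregnant control) to -0.67 (without the pregnant mutant) over omitted arrays. A stage left with 1 array was assumed to vary like the others, and the causes were not tested. Centring moved the median of all genes from -0.06 to -0.24, from -0.10 to -0.69 and from -0.03 to -0.45 in these 3 comparisons, and the share of higher among all called genes from 45% to 27.5%, from 45.9% to 19.2% and from 47.4% to 17.6%. For mutant against control, the fit with no replicate block (no stage term) gave a median of -0.22 and 0 calls, and the median was 0.09 without the virgin pair, -0.57 without the pregnant pair and -0.32 without the lactating pair. The limits are 1 mouse per genotype and stage, signals near background for the genes listed as slow, and stage that cannot be told apart from age and genotype.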

Other observations

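Myf6, a myogenic regulator of adult fibres below the limit for testing and picked once its values were known, had signals of 16.6 in the virgin mutant and 35.4 in the virgin control, 551 in the pregnant mutant and 337 in the pregnant control, and 74.3 in the lactating mutant and 90.8 in the lactating control. Ucp1, the brown fat uncoupling protein, picked likewise, did not follow the stages: it had 349 in the virgin mutant and 1605 in the virgin control, 2259 in the pregnant mutant and 1414 in the pregnant control, and 1690 in the lactating mutant and 134 in the lactating control.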
